A study of Arabidopsis thaliana with 4 samples.

Results

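Plant defensins are small secreted peptides, held together by disulphide bridges between cysteines, and many of them act against fungi. The 4 defensin genes PDF1.2, PDF1.2b, PDF2.5 and LCR67 and the wall-associated gene ECS1 were followed on all 4 arrays of the series, by taking the probe set that the platform annotation ties to each gene. All 5 genes were found, each with 1 probe set, among 13355 genes with a probe set of a single gene name. They were picked with their values on these arrays already known, so the ratios below describe the arrays and carry no test.

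The RNA came from whole seedlings of Arabidopsis thaliana, 2 weeks old, raised on 1/2 MS medium with 2% sucrose at 22 °C with 16 h of light and 8 h of dark. NO is the wild type of the Nossen (Nössen) cultivar, and the duf761-1 mutant carries its mutation in that cultivar. Col-0 is the Columbia-0 wild type, and OE6 is a transgenic Columbia-0 line that overexpresses DUF761-1. There was 1 array per genotype and the labels name 1 mutant line and 1 overexpressor line, so no value has a replicate and the spread between plants is unknown. The promoter of the OE6 transgene and the number of seedlings per sample were not given in the sources used here. The tables used here do not name DUF761-1, so its level was not used to check the genotypes.

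PDF1.2 and PDF1.2b belong to the group of defensins that jasmonate and ethylene act on together, and PDF1.2 is the usual marker gene of that branch of defence in Arabidopsis leaves. The ethylene response factors ERF1 and ORA59 activate it, while salicylate signalling holds it down. LCR67 is listed in the gene table under the other name PDF1.1, and PDF2.5 belongs to the second defensin group, whose genes are less tied to jasmonate. ECS1 encodes a cell wall-associated protein that was described in work on resistance of Arabidopsis accessions to the bacterium Xanthomonas campestris.

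The signals are linear MAS5 intensities, which can be set side by side between arrays for 1 probe set but not between probe sets. A floor of 102, the 40th percentile of all non-control signals, was used as the lower limit for ratios. Where 1 of the compared signals was under this floor, the ratio is a lower limit and is written "at least", and where both were, no ratio was formed. The floor was passed on at least 1 array by 4 of the 5 genes. From 58.3% to 61.6% of non-control probe sets were above the floor on each array. The ratio of 3′ to 5′ control probe sets was 1.14 to 1.38 for GAPDH and 2.58 to 2.72 for ubiquitin, but for actin it was 1.66 on NO and 1.49 on duf761-1 against 7.52 on Col-0 and 9.84 on OE6. The actin value thus moved with the cultivar, as the largest differences below did, and its part in them was not tested.

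PDF1.2, PDF1.2b and ECS1 were far higher on both Columbia arrays than on both Nossen arrays. The mutant was in Nossen and the overexpressor in Columbia, so only the wild types compare the cultivars without a change in DUF761-1. PDF2.5 stood apart on the OE6 array, and LCR67 was under the floor on all 4 arrays. Between duf761-1 and NO none of the 5 genes was 2-fold apart by floored signals (PDF2.5 and ECS1 measured on both arrays, PDF1.2b a lower limit, PDF1.2 and LCR67 without a ratio), as were 0.888% of all 7993 genes above the floor. At least 2-fold higher on Col-0 than on NO were 3 of the 5 genes, where 9.03% of the 7993 genes above the floor were. For OE6 over duf761-1 the number was 4 of 5, where 7.69% of genes were. This pair shares no array with the wild types, but its lines differ in DUF761-1 as well as in cultivar. It adds PDF2.5, whose log2 ratio of Col-0 over NO was 0.45. Both Columbia arrays were at least 2-fold above both Nossen arrays for 3 of the 5, beside 4.85% of all genes above the floor. The median log2 ratio of the 5 genes, with a gene lacking a ratio counted as 0, was at least 2.98 for Col-0 over NO, since it is the lower limit of PDF1.2, and 2.40 for OE6 over duf761-1, while that of all genes above the floor was 0.04 and 0.02. Since these arrays were in view when the genes were picked, nothing is read from these shares.

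**Figure D1:**
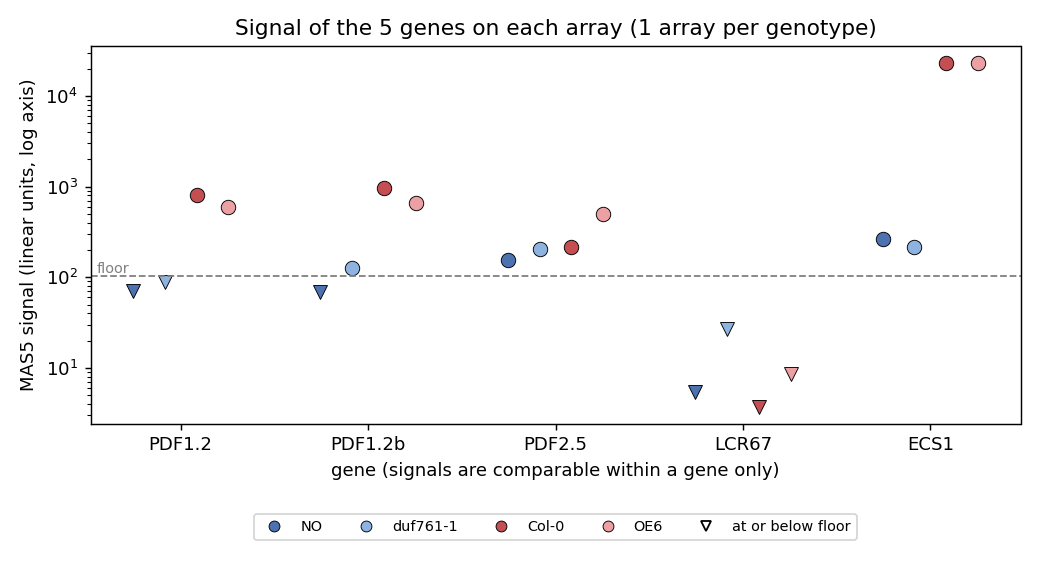
MAS5 signal (linear units on a log axis) of each of the 5 genes on the NO, duf761-1, Col-0 and OE6 arrays, 1 point per array. Triangles mark signals at or below the floor of 102 (dashed). The Columbia points of PDF1.2, PDF1.2b and ECS1 lie above their Nossen points, PDF2.5 is highest on OE6 at 502, and LCR67 lies under the floor throughout.

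ECS1 had a signal of 264 on NO and 215 on duf761-1 against 23031 on Col-0 and 22910 on OE6. Both Nossen arrays were low and both Columbia arrays high. The signal was 87.1-fold higher on Col-0 than on NO (log2 ratio 6.44) and 107-fold higher on OE6 than on duf761-1 (6.74). By size of ratio ECS1 ranked 1 of the 6687 genes above the floor on both arrays of the first pair, and 1 of 6686 in the second. Genes with a bound are left out of these ranks.

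Within each cultivar the ECS1 levels lay close together. The log2 ratio was -0.01 for OE6 over Col-0 and -0.30 for duf761-1 over NO. Of the genes measured on both arrays, 97.7% were as far apart as ECS1 or further in the first comparison and 26.7% in the second. As a yardstick of measurement noise, probe sets of the same gene differed in their log2 ratios with an SD per probe set of 0.24 (OE6 over Col-0) and 0.29 (duf761-1 over NO), over 57 genes, which leaves out any difference between plants. The deposited table marks no saturated spots, so whether the Columbia signals of ECS1 were compressed was not tested.

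The probes of this array were designed on Columbia sequence. A lower Nossen signal of any gene here can come from fewer transcripts or from bases that differ under the probes, and with 1 probe set per gene and no Nossen sequence used here these cannot be told apart. In whole seedlings, fewer cells that express a gene and less RNA per cell cannot be told apart either.

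PDF1.2 had a signal of 70.5 on NO and 89.6 on duf761-1, both under the floor, against 807 on Col-0 and 589 on OE6. Its level was at least 7.89-fold higher on Col-0 than on NO (log2 ratio at least 2.98) and differed at least 5.76-fold between OE6 and duf761-1, with OE6 higher (at least 2.53). Both Columbia arrays were at least 2-fold above both Nossen arrays, as for 4.85% of all genes above the floor. These lower limits depend on the floor: raised to the 60th percentile, it gave log2 ratios of at least 1.49 and 1.03 for PDF1.2 and, for PDF1.2b, at least 1.75 and 1.21.

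PDF1.2b, a close copy of PDF1.2 at another locus, had a signal of 68.8 on NO and 126 on duf761-1 against 969 on Col-0 and 666 on OE6. It was at least 9.47-fold higher on Col-0 than on NO (log2 ratio at least 3.24) and 5.27-fold higher on OE6 than on duf761-1 (2.40). As for PDF1.2, Col-0 was highest and OE6 next, with both Nossen arrays below them. The name of the PDF1.2b probe set ends in _x_at, which marks probes that can bind transcripts of other genes. The signals of PDF1.2 and PDF1.2b may therefore overlap, also with the copies PDF1.2c and PDF1.3, and they are uncertain as separate measurements.

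In the overexpressor both genes had lower signals than in Col-0, by less than 2-fold. The log2 ratio of OE6 over Col-0 was -0.45 for PDF1.2 and -0.54 for PDF1.2b, and 10.9% and 6.75% of the 7131 genes measured on both arrays were as far apart or further. In the mutant the ratio of PDF1.2b over NO was at least 0.31, a bound because NO was under the floor, and PDF1.2 had no ratio. The mutant comparison therefore does not show whether either gene was 2-fold apart.

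**Figure D2:**
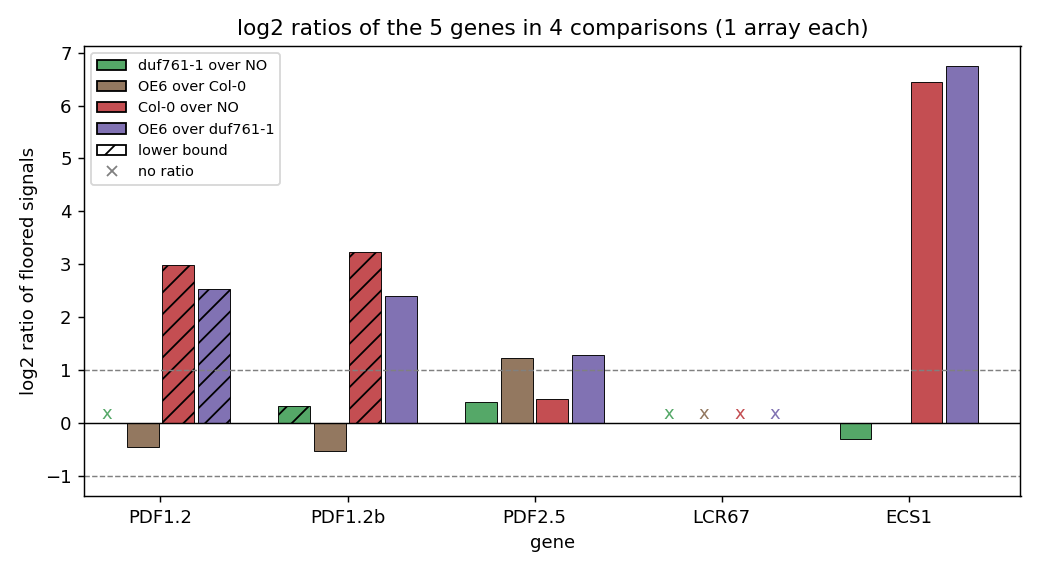
log2 ratios of floored signals for the 5 genes in 4 comparisons of 1 array each. Hatched bars are lower bounds, x marks genes without a ratio, and dashed lines mark 2-fold. ECS1 reached 6.44 and 6.74 in the Columbia over Nossen pairs, and PDF2.5 is the gene past 2-fold in OE6 over Col-0, at 1.23.

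PDF2.5 did not follow the cultivar in the same way. Its signal was 157 on NO and 206 on duf761-1 against 214 on Col-0 and 502 on OE6. The first 3 arrays lay within 1.36-fold of each other and OE6 stood above them. PDF2.5 exceeded its Col-0 level 2.34-fold in OE6 (log2 ratio 1.23), where 0.475% of genes above the floor were at least 2-fold higher. By size of ratio it ranked 30 of the 7131 genes measured on both arrays. This was 1 of the 5 genes. With a pseudocount in place of the floor the ratio was 0.93, within 2-fold. With the floor raised to the 60th percentile, above its Col-0 signal, the ratio was at least 0.80, which leaves the call unmade. PDF2.5 had a log2 ratio of 0.39 for duf761-1 over NO and 0.45 for Col-0 over NO. Its ratio of OE6 over duf761-1, 1.28, rests on the same OE6 array as that of OE6 over Col-0.

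LCR67 had signals of 5.40 on NO and 27.1 on duf761-1 against 3.75 on Col-0 and 8.64 on OE6. All 4 lay under the floor of 102, so no ratio was formed. Its level in these seedlings was not measurable with this probe set, which does not show that the gene was silent.

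**Figure D3:**
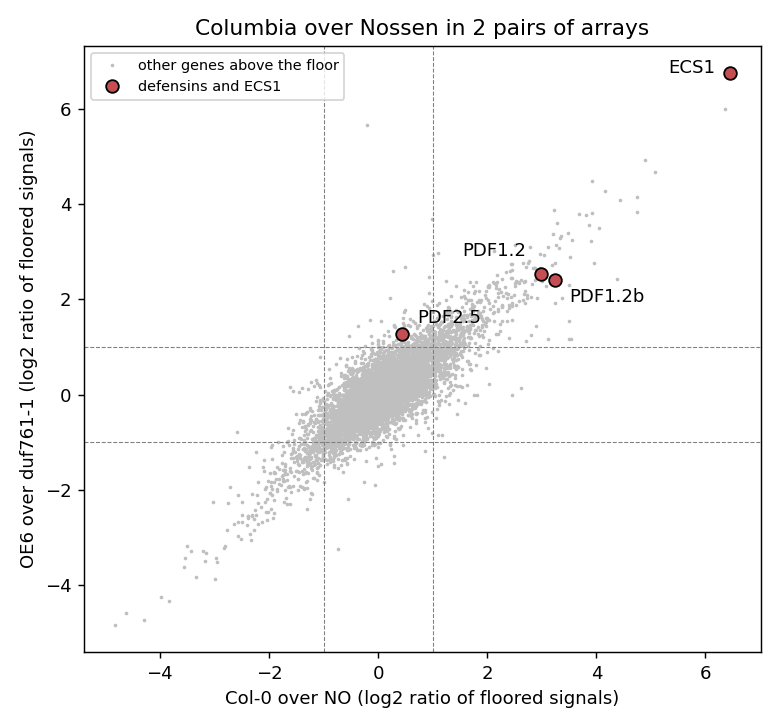
log2 ratios of floored signals of the 7993 genes above the floor, Col-0 over NO on the horizontal axis and OE6 over duf761-1 on the vertical axis, with 1 point per gene; ratios with 1 side at the floor are drawn at their bound and dashed lines mark 2-fold. ECS1 lies at 6.44 and 6.74, PDF1.2 and PDF1.2b between 2.40 and 3.24 on both axes, and PDF2.5 at 0.45 and 1.28.

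Of 8 other plant defensin genes, 6 had a named probe set, and 4 of these passed the floor on 1 array or more. PDF2.1, of the same defensin group as PDF2.5, had signals of 77.0 on NO and 84.8 on duf761-1, both under the floor, 444 on Col-0 and 828 on OE6. It was at least 4.34-fold higher on Col-0 than on NO and at least 8.10-fold above duf761-1 on OE6. Both its Columbia arrays were at least 2-fold above both Nossen arrays, as for 4.85% of all genes above the floor. On OE6 it was 1.87-fold above Col-0 (log2 ratio 0.90), short of 2-fold. PDF2.1 was the 1 gene of the 6 past 2-fold in either Columbia over Nossen pair, where 4 of the 6 had a ratio. Of all genes above the floor, 14.1% were at least 2-fold apart in Col-0 over NO and 12.9% in OE6 over duf761-1. Against its own wild type, 0 of 3 with a ratio in the mutant and 0 of 4 in the overexpressor were past it, beside 0.888% and 0.963% of all genes above the floor. These shares of all genes include genes at the floor on both arrays, whose ratio is fixed at 0.

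The other defensin genes above the floor were nearer to level. LCR69, also named PDF2.2, had signals of 9803 on NO and 9195 on duf761-1 against 15876 on Col-0 and 16246 on OE6, a log2 ratio of 0.70 for Col-0 over NO and 0.82 for OE6 over duf761-1. LCR68, also named PDF2.3, had 3274, 4256, 3050 and 4055 on the same arrays in that order. Its higher arrays were the mutant and the overexpressor, with log2 ratios of 0.38 and 0.41 over their own wild types. PDF1.4 had 305, 253, 217 and 189, with ratios of -0.49 for Col-0 over NO and -0.42 for OE6 over duf761-1. LCR66 and LCR72 were under the floor on all 4 arrays, as were LCR24, LCR59 and LCR80, the 3 genes with a named probe set among 77 further genes of the cysteine-rich LCR series.

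**Figure D4:**
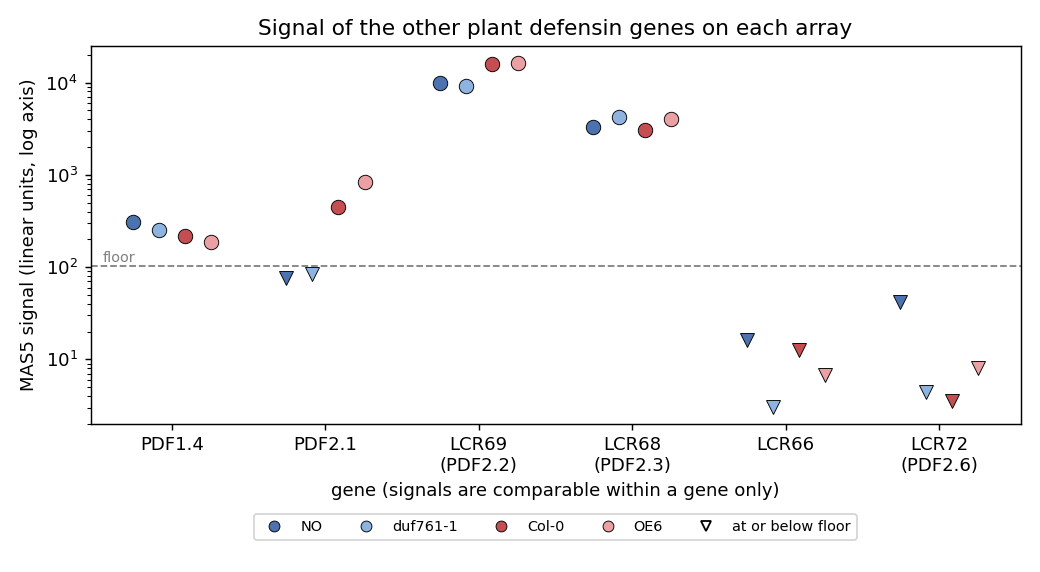
MAS5 signal (linear units on a log axis) of the 6 other plant defensin genes with a named probe set on the 4 arrays, 1 point per array, with triangles at or below the floor of 102 (dashed). PDF2.1 is under the floor on both Nossen arrays and reaches 444 on Col-0 and 828 on OE6, and the Columbia signals of LCR69 are above its Nossen signals.

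Few genes of the pathways around PDF1.2 carry a named probe set in the annotation used here. None of 10 jasmonate synthesis genes did, and 3 of 17 genes of jasmonate signalling and response, 1 of 14 of ethylene signalling, 1 of 12 of salicylate defence and 0 of 7 of camalexin and indolic defence. ERF1 and ORA59, the activators of PDF1.2, were not among them. MYC3 and MYC4, bHLH factors of jasmonate signalling, differed between the wild types in opposite directions, by less than 2-fold. MYC3 had signals of 363 on NO and 427 on duf761-1 against 633 on Col-0 and 536 on OE6, a log2 ratio of 0.80 for Col-0 over NO. MYC4 had 373, 455, 211 and 220, with a ratio of -0.82 for Col-0 over NO and -1.05 for OE6 over duf761-1, where 5.22% of all genes above the floor were at least 2-fold lower. The jasmonate-induced thionin gene THI2.1 was under the floor on all arrays.

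EIN3, the transcription factor at the end of the ethylene pathway, had signals of 2936 on NO and 2772 on duf761-1 against 2251 on Col-0 and 1865 on OE6, with no ratio past 2-fold. SAG101, a partner of EDS1 in defence, had signals between 103 and 158. AT2G43590, the 1 measured gene of 3 on the list of basic pathogenesis-related proteins, had 1207 on NO and 1337 on duf761-1 against 1952 on Col-0 and 2964 on OE6, a log2 ratio of 0.69 for Col-0 over NO and 1.15 for OE6 over duf761-1. It was highest on OE6, as PDF2.5 and PDF2.1 were, at 0.60 over Col-0. THI2.2, a thionin gene and the 1 measured gene of 12 other small secreted defence peptides, was highest in the mutant, with signals of 146 on NO and 326 on duf761-1 against 115 on Col-0 and 192 on OE6. Its log2 ratio was 1.16 in the mutant and 0.74 in the overexpressor, so both lines were above their own wild type, though by 2-fold only in the mutant. None of the 14 wall-associated kinase, glycine-rich and proline-rich or extensin wall protein genes set beside ECS1 had a named probe set.

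Tissue markers were read for the balance of shoot and root. Of 5 leaf markers 2 were measured. LHCB4.1, a light-harvesting protein gene, ranged from 17984 to 20409, and SBPASE, a Calvin cycle enzyme gene, was at 13142 on NO and 12460 on duf761-1 against 8464 on Col-0 and 8384 on OE6. Of 5 root markers 3 were measured. PYK10, a root beta-glucosidase gene, ranged from 15882 to 16513, the root hair expansin gene EXPA7 from 79.1 on NO to 196 on OE6, and EXPA18, another root hair expansin gene, from 188 on Col-0 to 426 on NO. Between the wild types, the log2 ratio of Col-0 over NO was -0.63 for SBPASE, -1.18 for EXPA18 and, in the other direction, at least 0.60 for EXPA7. In the same order the ratios were -0.57, 0.18 and 0.43 for OE6 over duf761-1, so EXPA18 did not follow the cultivar in both pairs. The part of these markers in the defensin and ECS1 differences was not tested.

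Genes with profiles most like those of the 4 genes above the floor were found by the Euclidean distance between log2 floored signals, each gene centred on its own mean over the 4 arrays, among 1158 genes with a symbol. The nearest to PDF1.2 were Fes1B (distance 0.19), PDF1.2b (0.23) and CYP71B22, a cytochrome P450 gene (0.25). PDF1.2b was nearest to PDF1.2 (0.23), then to DPE1, a starch-breakdown enzyme gene of the plastid (0.31), and CYP71B22 (0.32). With 4 arrays, and NO or both Nossen arrays held at the floor for PDF1.2, PDF1.2b, Fes1B and CYP71B22, these distances say little about the low side.

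The nearest genes to PDF2.5 were SBT3.5, a subtilase gene (0.27), CML23, a calmodulin-like gene (0.39), and cwINV6, a cell wall invertase homologue (0.48). All were highest on OE6, at signals of 537, 349 and 291, which a choice by likeness to PDF2.5 favours. CML23 was under the floor on NO (13) and duf761-1 (50), and cwINV6 was under it on Col-0 (101). Their distances therefore depend on the floor. Without it the log2 ratio of Col-0 over NO was 3.47 for CML23, against 0.45 for PDF2.5. ECS1 had no match as near among genes with a symbol. The nearest of these were CCL (1.76), ZW9 (2.39) and the clock gene GI (2.85). All were higher on both Columbia arrays, which a choice by likeness to ECS1 favours. Their ratios were smaller for CCL and ZW9 and are lower limits for GI. CCL, for example, had signals of 523 on NO and 630 on duf761-1 against 17705 on Col-0 and 16022 on OE6. When the search was widened to all other genes above the floor, a choice made after seeing the data, the nearest to ECS1 was AT1G23130 at a distance of 0.53, computed with its Nossen signals at the floor.

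The genes lying beside each of the 5 on the chromosome were read as well, taking the 3 nearest on either side with a named probe set. Beside ECS1, 5 of 6 neighbours were under the floor on all 4 arrays, among them the MADS-box genes AGL86 and AGL92. The remaining one, AT1G31550, was higher in Columbia, with 96.3 on NO and 78.6 on duf761-1 against 327 on Col-0 and 232 on OE6, a log2 ratio of at least 1.68 for Col-0 over NO and at least 1.18 for OE6 over duf761-1.

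Beside PDF1.2, 1 of 6 neighbours was at least 2-fold apart in Col-0 over NO and 2 in OE6 over duf761-1. Of all genes above the floor, 14.1% and 12.9% were. AT5G44400 had signals of 302 on NO and 188 on duf761-1 against 1220 on Col-0 and 907 on OE6, with log2 ratios of 2.02 and 2.27, and AT5G44410 had ratios of 0.82 and 1.08. AT5G44390, on the same side, ran the other way, with 151 on NO and 122 on duf761-1 against 53.5 on Col-0 and 52.6 on OE6, both under the floor, and ratios of -0.56 or lower and -0.25 or lower. On the other side of PDF1.2, AT5G44440 was also lower in Columbia, with 139 on NO and 125 on duf761-1. Its signals of 50.8 on Col-0 and 66 on OE6 were under the floor, so its ratios were -0.44 or lower and -0.29 or lower. AT5G44450 had ratios of 0.07 and 0.45. CML43 had at least 0.26 for Col-0 over NO and -0.12 or lower for OE6 over duf761-1.

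Beside PDF1.2b the 1 neighbour past 2-fold was AT2G25980, with 88.1 on NO and 67.6 on duf761-1 against 477 on Col-0 and 476 on OE6, at least 2.22 in both pairs. RTE1, a regulator of the ethylene receptor ETR1 that lies 5 genes away in the gene table, had a ratio of 0.13 for Col-0 over NO. Beside PDF2.5, where 1 of 6 neighbours was under the floor on every array, none was past 2-fold by floored signals in any of the 4 comparisons. Beside LCR67, AT1G75880 reached 1.01 for Col-0 over NO and 0.31 for OE6 over duf761-1. Of the 30 neighbours, 18 had a ratio in the mutant comparison and 17 in the overexpressor comparison, some of them bounds. By floored signals 0 of these were 2-fold apart, beside 0.888% and 0.963% of all genes above the floor. None of the 6 beside ECS1 had a ratio for duf761-1 over NO. In Col-0 over NO, 4 of the 19 neighbours with a ratio were 2-fold apart, beside 14.1% of all genes above the floor. In OE6 over duf761-1 these numbers were 4 of 20 and 12.9%. The shares of all genes include genes at the floor on both arrays, whose ratio is fixed at 0, so the denominators differ. Nothing is read from such small counts.

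**Figure D5:**
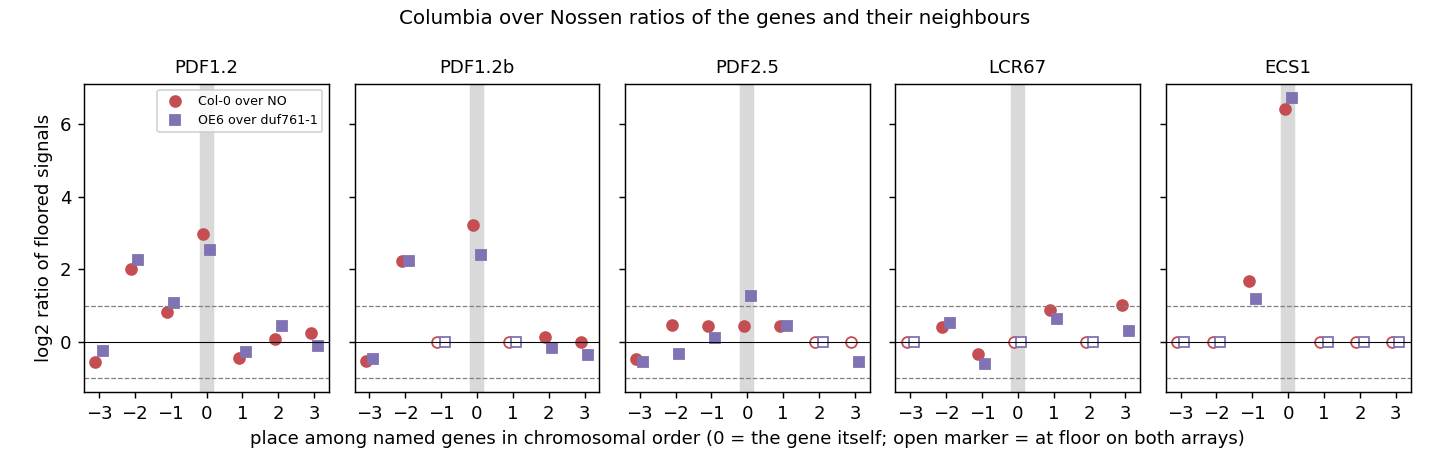
log2 ratios of floored signals for Col-0 over NO (circles) and OE6 over duf761-1 (squares), for each of the 5 genes (place 0, grey band) and the 3 nearest genes with a named probe set on either side. Ratios with 1 side at the floor are drawn at their bound, open markers are genes at the floor on both arrays, and dashed lines mark 2-fold. ECS1 stands at 6.44 and 6.74 with 1 neighbour above the floor, and the neighbours AT5G44400 of PDF1.2 and AT2G25980 of PDF1.2b lie past 2-fold.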

How the data were processed

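RNA of 4 genotypes was hybridised to ATH1 arrays, 1 array each. The deposited values are linear signal intensities, for which the submitters' processing notes name MAS5 without a version, so the authors' other settings are unknown here. Each array has a mean of 500 after trimming 2% at each end. The number of arrays limits the precision.

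The 40th percentile over the 22746 non-control probe sets and all arrays was the floor, and lower signals were raised to it before log2. Of the probe sets, 13513 carry a single gene name, 503 several and 8730 none in the annotation used here. Names were updated through a gene table of assembly TAIR10.1, and 13333 of 13355 genes matched. It served for names and gene order, with no coordinates, since the files name no build. Of a gene's probe sets the brightest by mean log2 signal was kept. Genes were called at 2-fold, with no test, in 4 comparisons, using Python 3.11.15, numpy 2.4.6 and pandas 2.3.3. Comparisons that share an array are not independent. The calling was also run on simulated arrays. No result of that run is given here, so it does not show how reliable the calls for the genes named above are.

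The 5 genes and the 11 gene lists (107 genes, 18 with a named probe set) were chosen with earlier results of these data known. Named beside the 5 were all other defensins, list members past 2-fold or with the widest range, the 3 nearest profiles and the chromosomal neighbours. PDF1A and PDF1B, which share the letters of the defensin symbols, encode peptide deformylases and were left out. Alternatives were 3 scalings, other floors, a pseudocount, a 3-fold threshold and other handling of probe sets.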

Additional observations from a re-analysis of the deposited data

How the results depend on the processing

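With 5 genes and 1 array per genotype, no p-value, error or leave-one-out value could be had. No paired analysis was possible because each genotype has a single array and the labels give no replicate numbers. For Col-0 over NO, 2 to 3 of the 5 genes were at least 2-fold apart over 10 alternatives, and for OE6 over duf761-1, 3 to 5. The low value for Col-0 over NO came from leaving out PDF1.2b, whose probe set can cross-hybridise. That for OE6 over duf761-1 came with the same setting and, through PDF2.5, with the pseudocount, the 3-fold threshold and the higher floor. For OE6 over Col-0 the main number of 1 became 0 with a floor at the 60th percentile, with the pseudocount and with a 3-fold threshold, and 2 without a floor; with the higher floor PDF2.5 is a lower limit of 0.80. For duf761-1 over NO the main number of 0 became 1 without a floor. Both genes gained without a floor are LCR67, from signals under 30. The high value of 5 for OE6 over duf761-1 also came without a floor and through LCR67. Its log2 ratio there was -1.65, lower on OE6, while the other members were higher on OE6. Of 176 single log2 ratios recomputed, 146 moved by less than the noise yardstick, 30 by more, and 0 of those past 2-fold changed sign. The 176 include LCR67 in all 4 comparisons and PDF1.2 for duf761-1 over NO. In most settings both signals of these were at the floor, which fixes the value at 0. The number 146 therefore overstates the stability. Over the alternatives, Col-0 over NO ranged from 5.98 to 6.85 for ECS1, from 1.49 to 3.52 for PDF1.2 and from 1.75 to 3.82 for PDF1.2b, lowest with the pseudocount for ECS1 and with the floor at the 60th percentile for the others. Scaling on 18 spike-in probe sets raised the Columbia over Nossen ratio of all signals by 0.41 (Col-0 over NO) and 0.26 (OE6 over duf761-1), median scaling lowered it by 0.16 and 0.18, and the same genes of the 5 stayed past 2-fold. All genes at least 2-fold apart numbered 71 for duf761-1 over NO (10 to 288 over the alternatives), 77 for OE6 over Col-0 (11 to 226), 1129 for Col-0 over NO (374 to 1697) and 1032 for OE6 over duf761-1 (350 to 1498). A comparison of level ranks between genes was not run, since signals of different probe sets cannot be set against each other.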

Other observations

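ECS1 was not alone at the far end of the difference between the cultivars. By floored signals, 7 genes were at least 16-fold higher on Col-0 than on NO and on OE6 than on duf761-1, chosen here after their values were seen. AT1G23130 came nearest to ECS1, with signals of 48.9 on NO and 46.4 on duf761-1 against 8413 on Col-0 and 6497 on OE6. Both its Nossen signals were under the floor, so its log2 ratios of 6.36 and 5.99 are lower limits, and its place relative to ECS1 is not known. AT3G62550 had 256, 233, 7619 and 7123 on the same arrays in that order, and AT5G44580 had 265, 321, 7055 and 5707. The others were CCL, AT1G67865 and AT4G34950. By floored signals none of the 7 was 2-fold apart between a line and its own wild type. For duf761-1 over NO, however, AT1G23130 and AT4G34950 had no ratio, and the 0.02 of AT1G67865 is a lower limit. Over all 7 genes the log2 ratio of OE6 over Col-0 ran from -0.37 to 0.10.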
